A study of Mus musculus with 12 samples.

Results

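Interferon-stimulated effector genes are the genes whose products carry out the antiviral and antimicrobial work of an interferon response. They were followed here as 44 named genes in mouse embryoid bodies with and without Gcn5, the enzyme encoded by Kat2a, which acetylates histones as part of coactivator complexes. Table rows were taken by matching Ensembl gene IDs to the 44 symbols. Of these, 43 had a row in the table of 18269 genes and 42 passed the filter on low values, among 17000 genes in all that did. The filter kept genes with a mean of at least 10 normalised reads in at least 1 group. Oas2 had a row but fell below the filter, and Isg20 was not analysed here. The genes were picked with the null and floxed differences in these libraries already known. Those differences are therefore descriptions: where genes are counted as called between the lines, the call only sorts them, and no p-value is given or read for it.

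RNA was sequenced from 12 samples, 3 in each of 4 groups, all of strain C57BL/6 and all from embryoid bodies, the aggregates that embryonic stem cells form as they differentiate. The groups were Gcn5 null embryoid bodies (Gcn5-/-, line 4C2) at day 5 and floxed embryoid bodies (Gcn5fx/fx, line 4_1, in which recombination sites flank the gene) at day 5, and the same null and floxed lines at day 3. The series set out to learn how gene expression changes without Gcn5 early in differentiation. Its text speaks of duplicates, whereas the labels give 3 samples per group. Each genotype was 1 cell line, so what belongs to the line cannot be told apart from what belongs to the genotype. Nothing in the labels says that the 3 samples were grown separately, so p-values measure the spread between these samples, which may be technical.

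Values are normalised reads, which are read counts divided by 1 size factor per library. Between 18022071 and 26803369 reads per null library and 23090915 to 29446068 per floxed library were recovered for the listed genes. Kat2a had 614 to 860.2 normalised reads in null libraries, against 2071 to 2391 in floxed libraries. One value per gene cannot show whether the remaining null reads come from outside the deleted segment. All 7 pluripotency and epiblast markers examined (Pou5f1, Nanog, Sox2, Dppa4, Utf1, Fgf5, Otx2) were present. They summed to 5302 to 7728 normalised reads in null and 8546 to 12380.5 in floxed libraries at day 5, and to 15380.3 to 21886 in null and 18667 to 25923 in floxed libraries at day 3. The sums did not overlap at day 5. Of these 7, 4 were lower in null libraries at day 5 and 2 at day 3 at a limma adjusted p under 0.05, and 0 higher. Of all genes tested, 13.5% were lower and 13.0% higher at day 5, and 2.03% lower and 4.09% higher at day 3.

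Interferons signal through cell-surface receptors and JAK kinases to transcription factors, STAT2 and IRF9 among them, that bind the interferon-stimulated response element (ISRE) in the promoters of target genes. Interferon gamma acts mainly through another element, the gamma-activated site, and embryonic stem cells are known for a muted interferon response that matures as they differentiate. The genes below are grouped by what their products do, from GTPases that attack the membranes around pathogens to enzymes that modify nucleic acids and proteins.

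RefSeq promoter windows of the GRCm38.p6 assembly, running from 250 bases before to 50 bases after a gene's start, were found for 35 of the 44 genes. The ISRE core was searched as GAAA, any 2 bases and GAAA on either strand, which reads as TTTC, any 2 bases and TTTC on the other, and matches may overlap. At least 1 window of 18 of the 35 genes held it (51.4%), against 3.99% of the 27025 genes in the promoter table. The gamma-activated site was searched as TTCNNNGAA, which is its own reverse complement, and was found for 10 of the 35 genes (28.6%), against 9.55% of genes in the table. A match is a run of letters and not a site shown to be bound. The 8 promoters below show where the core lies in genes from 3 groups of effectors. Each is given as the 120 bases before the RefSeq start, 5′ to 3′ on the gene's strand. The gene spans printed further below come from another annotation, GENCODE M21, and their starts can differ. Thus the Irgm2 stretch lies inside the span printed for that gene, and those of Ifit1, Gbp2 and Gbp3 run into theirs. Capitals mark the ISRE core or overlapping cores.

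Gbp2 (chr3:142620543-142620662, plus strand): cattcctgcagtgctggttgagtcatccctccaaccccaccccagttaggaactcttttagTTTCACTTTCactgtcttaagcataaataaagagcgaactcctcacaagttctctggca
Gbp3 (chr3:142559924-142560043, plus strand): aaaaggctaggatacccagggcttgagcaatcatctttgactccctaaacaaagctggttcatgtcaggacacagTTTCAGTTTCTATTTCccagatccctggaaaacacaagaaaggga
Gbp7 (chr3:142530216-142530335, plus strand): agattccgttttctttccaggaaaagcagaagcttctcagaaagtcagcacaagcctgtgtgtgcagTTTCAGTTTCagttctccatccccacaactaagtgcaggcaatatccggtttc
Irgm2 (chr11:58214857-58214976, plus strand): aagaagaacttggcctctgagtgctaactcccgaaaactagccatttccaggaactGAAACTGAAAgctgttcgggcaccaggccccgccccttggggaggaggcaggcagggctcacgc
Igtp (chr11:58199436-58199555, plus strand): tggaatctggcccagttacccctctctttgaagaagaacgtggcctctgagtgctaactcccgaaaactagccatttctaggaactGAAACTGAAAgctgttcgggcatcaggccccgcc
Ifit1 (chr19:34640769-34640888, plus strand): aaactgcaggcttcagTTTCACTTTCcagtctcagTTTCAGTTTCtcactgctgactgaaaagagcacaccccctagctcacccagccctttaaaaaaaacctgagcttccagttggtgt
Rsad2 (chr12:26456453-26456572, minus strand): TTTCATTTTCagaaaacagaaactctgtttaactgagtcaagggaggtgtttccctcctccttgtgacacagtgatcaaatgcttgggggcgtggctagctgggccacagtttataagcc
Isg15 (chr4:156200819-156200938, minus strand): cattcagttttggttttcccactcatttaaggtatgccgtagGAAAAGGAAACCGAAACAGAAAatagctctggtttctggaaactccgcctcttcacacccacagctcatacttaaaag

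The core began between 34 and 120 bases before the start in these 8 windows, and Ifit1 held 2 separate cores, 104 and 85 bases before it. The capitals of Irgm2 and Igtp are the same 10 letters within a nearly shared stretch. No ISRE core was found in the windows of 17 genes, among them Oasl2, Ifi35, Trim25, Herc6 and Parp12. Among the tested genes of each kind, the median log2 change of null against floxed embryoid bodies at day 5 was 1.42 with a core and 0.95 without one. At day 3 these medians were 0.81 and 0.66. Tested genes for which no window was found are in neither median. Their log2 changes ran from 1.03 (Parp9) to 3.09 (Gbp11) at day 5 and from 0.77 (Parp9) to 1.83 (Rtp4) at day 3. The genes were chosen on these differences, so the medians with and without a core are read no further.

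Most of the effector genes were higher in null than in floxed embryoid bodies, and 34 of the 42 log2 differences were larger at day 5 than at day 3. A gene was called where the adjusted p of limma, a linear model fitted across all genes, was under 0.05. At day 5, 34 of the 42 genes were called higher in null libraries and 2, Ifitm1 and Ifitm2, were called lower. Of all genes tested, 13.0% were called higher and 13.5% lower. The median log2 change over the 42 was 1.25, against -0.02 over all genes. At day 3, 15 of the 42 were called higher and 0 lower, with 4.09% of all genes called higher and 2.03% lower. The median was 0.84, against 0.00 over all genes. All 15 genes called at day 3 were also called higher at day 5. The genes were chosen on these contrasts, so the counts are read no further. The same shares of all genes stand beside the counts called in each group of effectors below, which are likewise read no further. In bulk RNA, a larger share of cells that express such genes and more RNA per cell cannot be told apart.

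In 37 of the 42 genes the lowest null library at day 5 lay above the highest floxed library, a separation found in 19.8% of all genes. At day 3 the same held for 23 of the 42, against 14.8% of all genes. The libraries of a group did not contribute evenly. The null day 3 library numbered 3 was the highest of its group for 30 of the 42 genes, where it was highest for 37.6% of all genes, and the floxed day 3 library numbered 2 was the highest for 27 of 42, against 33.7% of all genes. At day 5 the null library numbered 3 was the highest for 25 of the 42, against 35.3% of all genes. The day 3 count was sensitive to single libraries. It was 7 without null day 3 replicate 3, 8 without null day 3 replicate 2 and 8 without floxed day 3 replicate 1. The day 5 count stayed between 28 and 36 as each library was left out. Of the calls, 26 of 36 at day 5 and 6 of 15 at day 3 held as each library was left out. The 6 were Gbp3, Gbp7, Parp14, Oasl2, Ifi35 and Trim25. The 10 at day 5 that some omission ended were Isg15, Oasl1, Oas3, Usp18, Ifi27, Irgm1, Parp12, Lgals3bp, Ifitm1 and Ifitm2.

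**Figure D1:**
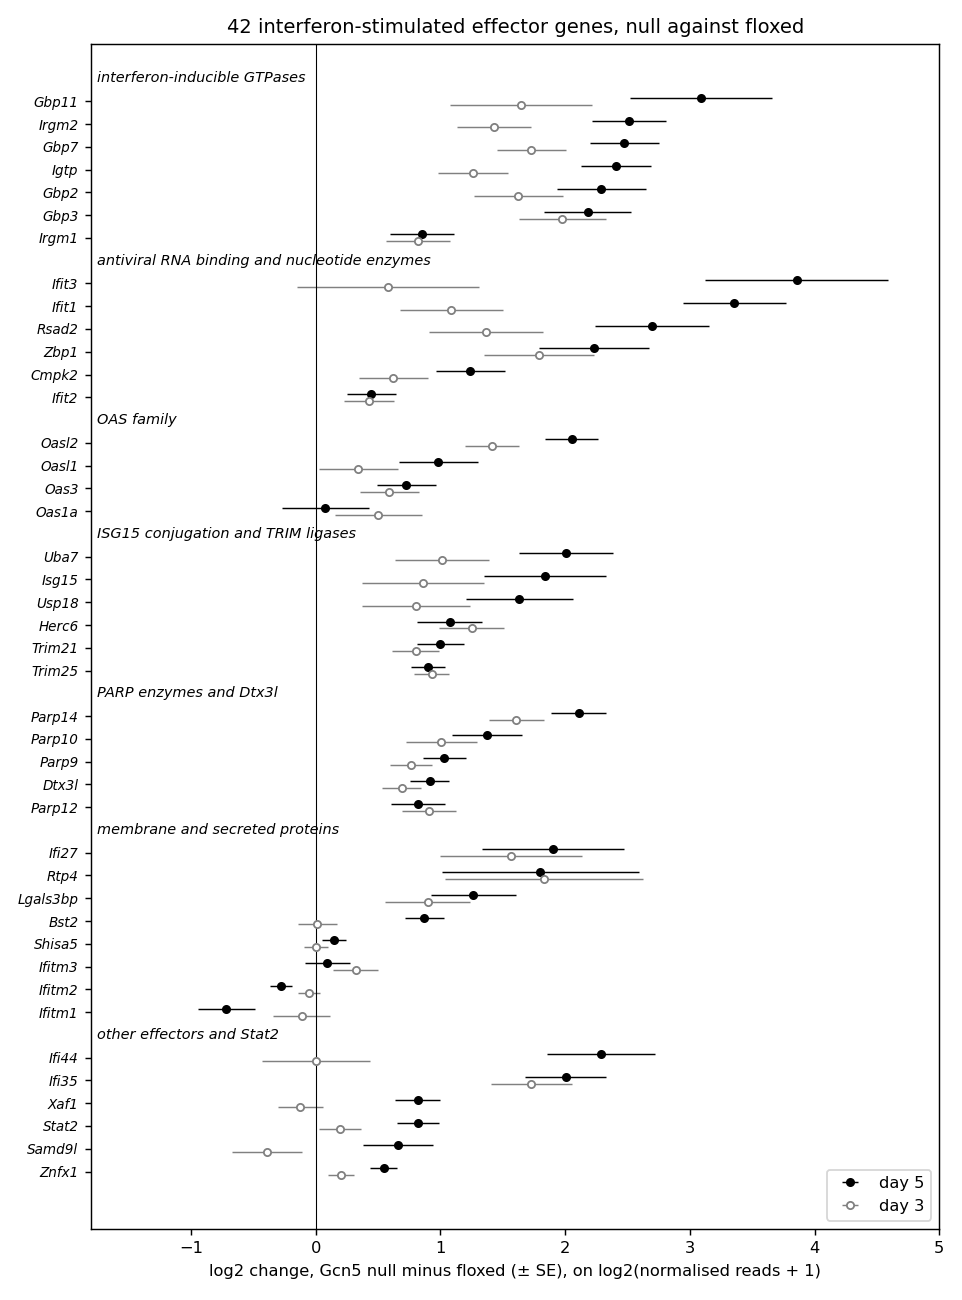
Log2 change of null against floxed embryoid bodies with its SE for the 42 tested genes, grouped by role, at day 5 (filled) and day 3 (open). At day 5, 40 of 42 points lie above 0 and at day 3 37 of 42 do. Ifitm1 and Ifitm2 lie to the left of 0 on both days.

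The 7 interferon-inducible GTPases were higher in null embryoid bodies, with 7 of 7 called higher at day 5 and 5 of 7 at day 3. Guanylate-binding proteins are large GTPases that assemble on the vacuoles and membranes of intracellular pathogens. Gbp2 (ENSMUSG00000028270.12, chr3:142620602-142638008) had 2586, 3248 and 3422 normalised reads in null libraries at day 5, against 788, 647 and 479 in floxed libraries. Null libraries at day 3 had 567, 1031 and 922 normalised reads of Gbp2 and floxed ones had 171, 544 and 195. Every null library exceeded every floxed one on both days, with log2 changes of 2.29 ± 0.36 at day 5 and 1.63 ± 0.36 at day 3 (± SE). The margin at day 3 was narrow, since floxed replicate 2 nearly reached null replicate 1.

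Gbp7 (ENSMUSG00000040253.15, chr3:142530342-142550149) had 1778, 2069 and 1961 normalised reads in null and 457, 367 and 248 in floxed libraries at day 5. Gbp7 reached 318, 429.7 and 460.5 in null libraries at day 3 and 77.4, 188 and 116 in floxed ones. The groups were apart on both days, by 2.48 ± 0.28 (log2) at day 5 and 1.73 ± 0.28 at day 3. Its neighbour Gbp3 (ENSMUSG00000028268.14, chr3:142560026-142573209) had 1013, 1060.2 and 1151 in null and 302, 215 and 203 in floxed libraries at day 5. At day 3 Gbp3 stood at 285, 486 and 255 in null and 60.0, 166 and 56.2 in floxed libraries. Gbp3 showed the largest day 3 log2 change of the 42 genes, 1.98 ± 0.35, and 2.18 ± 0.35 at day 5, and floxed replicate 2 was again the highest floxed library at day 3.

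Gbp11 (ENSMUSG00000092021.8, chr5:105323042-105346472), annotated as a polymorphic pseudogene, was far less abundant. It had 89.3, 139.8 and 155 normalised reads in null and 14.3, 28.5 and 6.11 in floxed libraries at day 5. For Gbp11 at day 3 the values were 18.3, 21.4 and 35.8 in null and 2.90, 17.2 and 6.35 in floxed libraries. Its log2 change was 3.09 ± 0.57 at day 5 and 1.64 ± 0.57 at day 3, where the groups were apart by little more than 1 normalised read. The guanylate-binding genes resemble each other in sequence, so reads may have been split among them.

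Irgm1, Irgm2 and Igtp encode immunity-related GTPases that in mice keep effector GTPases off the cell's own membranes. Irgm2 (ENSMUSG00000069874.6, chr11:58199618-58222782) had 579.8, 807 and 652 normalised reads in null and 119, 152 and 88.2 in floxed libraries at day 5. The day 3 values of Irgm2 were 188, 360.1 and 249 in null and 109, 129 and 59.9 in floxed libraries. Its log2 change was 2.52 ± 0.30 at day 5 and 1.43 ± 0.30 at day 3, without overlap of the groups on either day. Igtp (ENSMUSG00000078853.8, chr11:58199556-58207591) lies within the same stretch and shares 162 exon bases with Irgm2 on the same strand, so the pair is not independent. Igtp had 614, 875 and 752 in null and 145, 164 and 112 in floxed libraries at day 5. Null libraries at day 3 had 286, 392 and 317 normalised reads of Igtp and floxed ones had 146, 212 and 81.6, and its log2 changes were 2.41 ± 0.28 at day 5 and 1.26 ± 0.28 at day 3.

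Irgm1 (ENSMUSG00000046879.6, chr11:48861968-48871683) differed less than the other GTPases. It had 675, 619.8 and 587 normalised reads in null and 465, 289 and 309.9 in floxed libraries at day 5, a log2 change of 0.85 ± 0.26. Irgm1 reached 262, 449.8 and 446 in null libraries at day 3 and 159, 301 and 198 in floxed ones, where null replicate 1 lay below floxed replicate 2.

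The 6 antiviral RNA-binding proteins and nucleotide enzymes had a median log2 change of 2.46 at day 5, with 5 of 6 called higher in null libraries there and 1 of 6, Zbp1, at day 3. Ifit1 (ENSMUSG00000034459.8, chr19:34640871-34650009) binds RNA whose cap lacks the methylation of the cell's own messengers. It had 91.6, 83.9 and 74.9 normalised reads in null libraries at day 5, against 11.9, 5.03 and 6.11 in floxed libraries, a log2 change of 3.36 ± 0.41. At day 3 Ifit1 stood at 6.11, 8.03 and 18.8 in null and 3.87, 3.22 and 5.44 in floxed libraries, and null replicate 3 stood well above the other null libraries. Ifit3 (ENSMUSG00000074896.3, chr19:34583531-34588731), whose human counterpart stabilises IFIT1, was near the floor of detection outside the null day 5 libraries. It had 30.5, 24.5 and 39.2 in null and 4.77, 0.838 and 0 in floxed libraries at day 5, a log2 change of 3.86 ± 0.73. For Ifit3 at day 3 the values were 0, 2.68 and 4.47 in null and 0, 2.14 and 0.907 in floxed libraries, which overlapped. A close copy, Ifit3b, may share reads with Ifit3. Ifit2, on the same chromosome, differed little and was called on neither day. It averaged 197 ± 32.8 in null and 145 ± 27.3 in floxed libraries at day 5, which overlapped, with a log2 change of 0.45 ± 0.20. Its log2 change at day 3 was 0.43 ± 0.20.

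Rsad2 (ENSMUSG00000020641.15, chr12:26442746-26456452) encodes viperin, which makes a nucleotide that ends viral RNA chains. It had 723, 733 and 1019 normalised reads in null and 156, 153 and 81.2 in floxed libraries at day 5, a log2 change of 2.70 ± 0.46. The day 3 values of Rsad2 were 31.8, 75.0 and 87.6 in null and 15.5, 49.3 and 14.5 in floxed libraries, where floxed replicate 2 exceeded null replicate 1. Its neighbour Cmpk2, a mitochondrial nucleotide kinase, averaged 197 ± 26.5 in null and 83.0 ± 14.3 in floxed libraries at day 5 (SD, n = 3 each). Zbp1 (ENSMUSG00000027514.14, chr2:173206612-173218923), a sensor of left-handed nucleic acids that can start cell death, had 135, 155 and 184 in null and 28.6, 33.5 and 35.8 in floxed libraries at day 5. Null libraries at day 3 had 35.4, 45.5 and 106 normalised reads of Zbp1 and floxed ones had 6.78, 23.6 and 21.8. Its groups were apart on both days, with log2 changes of 2.23 ± 0.44 at day 5 and 1.79 ± 0.44 at day 3.

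**Figure D2:**
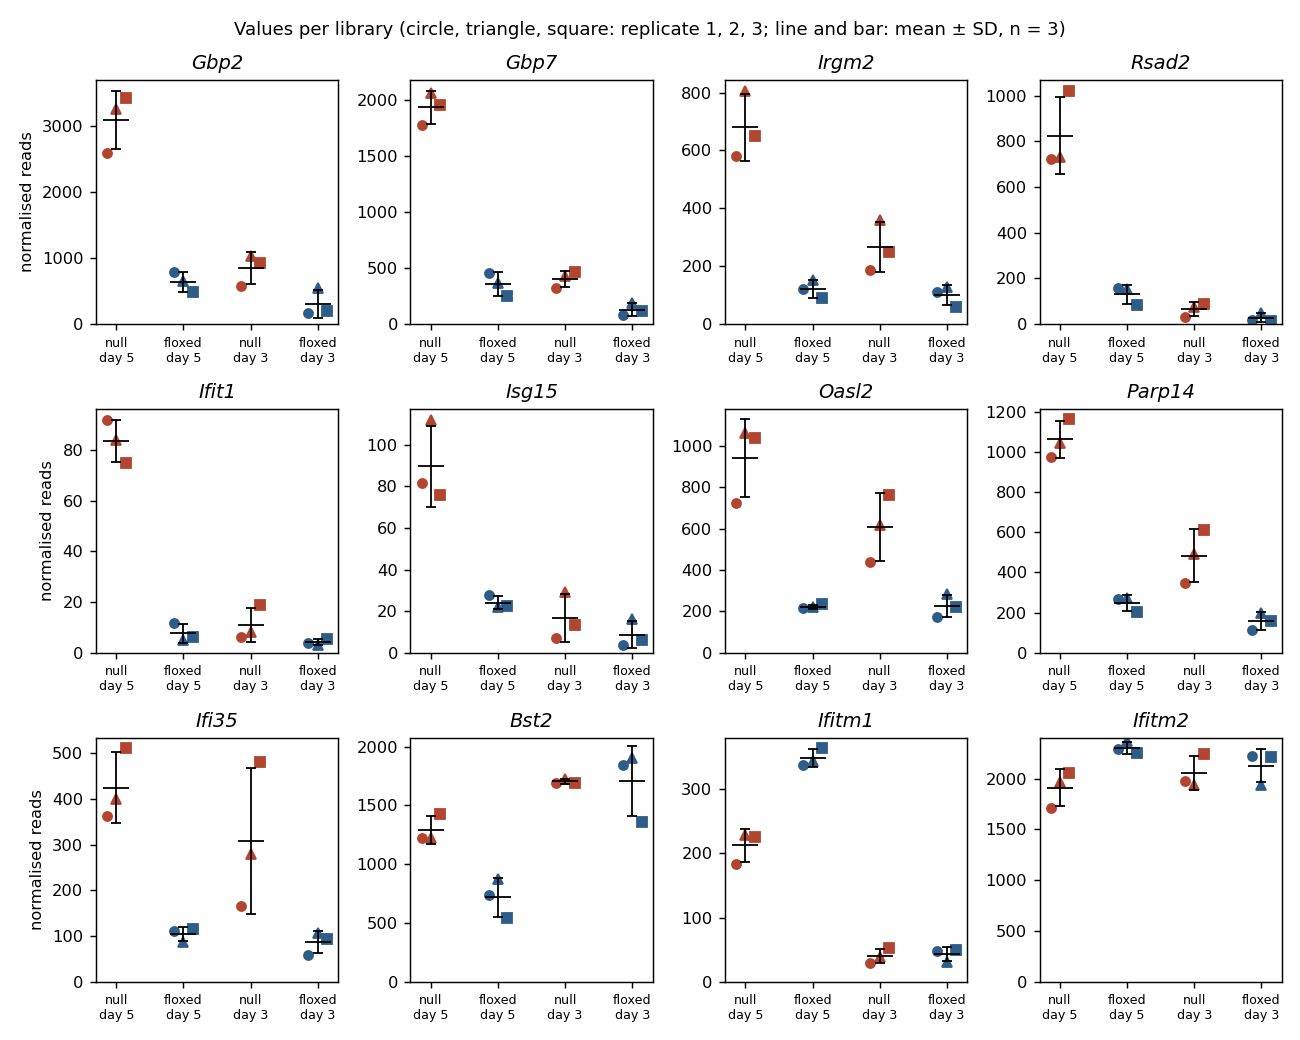
Normalised reads of 12 genes in each library, for null and floxed embryoid bodies at day 5 and then at day 3, with the mean and SD of 3 libraries. The null day 5 libraries stand above the floxed ones in 10 of the 12 panels. In the panels of Ifitm1 and Ifitm2 they stand below.

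The OAS family includes enzymes that make oligoadenylates, which activate RNase L, and some of its members act without that product. Of its 4 tested genes, 3 were called higher in null libraries at day 5 and 1, Oasl2, at day 3. Oasl2 (ENSMUSG00000029561.17, chr5:114896936-114912234) had 723, 1063 and 1039 normalised reads in null and 216, 219.5 and 234 in floxed libraries at day 5, a log2 change of 2.05 ± 0.22. Oasl2 reached 436, 619 and 764 in null libraries at day 3 and 174, 282 and 219 in floxed ones, again apart, with a log2 change of 1.41 ± 0.22. Oas1a did not follow this: it averaged 36.0 ± 0.283 in null and 34.4 ± 6.18 in floxed libraries at day 5. Oas2, below the filter, had 7.91, 6.99 and 4.46 in null and 10.3, 5.03 and 12.2 in floxed libraries at day 5, and 4.89, 4.02 and 5.36 in null and 2.90, 1.07 and 2.72 in floxed libraries at day 3.

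Isg15 is a ubiquitin-like modifier, Uba7 the enzyme that activates it, Herc6 its main ligase in mice and Usp18 the protease that removes it and restrains the type I receptor. With the ubiquitin ligases Trim21 and Trim25 these made 6 genes, of which 6 were called higher in null libraries at day 5 and 3 (Herc6, Trim21, Trim25) at day 3. Isg15 (ENSMUSG00000035692.6, chr4:156199424-156200818) had 81.4, 112 and 75.8 normalised reads in null and 27.8, 21.8 and 22.7 in floxed libraries at day 5, a log2 change of 1.84 ± 0.49. At day 3 Isg15 stood at 7.33, 29.5 and 13.4 in null and 3.87, 16.1 and 6.35 in floxed libraries, which overlapped, with replicate 2 the highest of each group. Usp18 (ENSMUSG00000030107.10, chr6:121245906-121270917) had 62.2, 65.2 and 57.0 in null and 15.1, 32.7 and 13.97 in floxed libraries at day 5, a log2 change of 1.63 ± 0.43. At day 3 Usp18 was low in both, at 7.33, 5.36 and 16.1 in null and 3.87, 3.22 and 7.26 in floxed libraries. Uba7 averaged 69.6 ± 16.95 in null and 16.6 ± 4.36 in floxed libraries at day 5, and 10.4 ± 4.98 in null and 4.51 ± 1.73 in floxed libraries at day 3.

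Trim25 (ENSMUSG00000000275.16, chr11:88999376-89020293), which acts on the RNA sensor RIG-I, was among the most abundant of the 42 genes. It had 2992, 2456 and 2423 normalised reads in null and 1588, 1414 and 1219 in floxed libraries at day 5. For Trim25 at day 3 the values were 1996, 2369.6 and 2540.1 in null and 1073, 1448 and 1119 in floxed libraries. Its difference was modest and close on both days, 0.90 ± 0.14 (log2) at day 5 and 0.93 ± 0.14 at day 3, without overlap.

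All 5 genes of ADP-ribosylation were called higher in null libraries at day 5 and 4 of 5 at day 3. Parp14 (ENSMUSG00000034422.14, chr16:35832874-35871544), a large mono-ADP-ribosyltransferase, had 977, 1045 and 1162 normalised reads in null and 266, 272 and 202 in floxed libraries at day 5. The day 3 values of Parp14 were 347, 493 and 609 in null and 114, 201 and 158 in floxed libraries. The groups were apart on both days, by 2.11 ± 0.22 (log2) at day 5 and 1.61 ± 0.22 at day 3. Parp9 and its partner, the ubiquitin ligase Dtx3l, share 458 exon bases on opposite strands, and whether counting used the strand is not given in the sources used here. Their log2 changes were alike, 1.03 ± 0.17 and 0.91 ± 0.16 at day 5 and 0.77 ± 0.17 and 0.69 ± 0.16 at day 3. Parp10, which shares 205 exon bases with Plec, and Parp12 had log2 changes of 1.37 and 0.82 at day 5.

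The 8 membrane and secreted proteins were split, with 3 called higher and 2 lower in null libraries at day 5 and 0 of 8 called at day 3. The Ifitm proteins hinder the fusion of viral and cell membranes, and some are also expressed in embryonic cells without interferon. Ifitm1 (ENSMUSG00000025491.14, chr7:140967221-140969825) had 183, 228 and 226 normalised reads in null libraries at day 5, against 338, 344 and 364 in floxed libraries, a log2 change of -0.72 ± 0.23 with the null libraries all lower. Null libraries at day 3 had 29.3, 38.8 and 51.9 normalised reads of Ifitm1 and floxed ones had 48.4, 31.1 and 49.9, which overlapped. Ifitm2 (ENSMUSG00000060591.8, chr7:140954837-140955987) had 1711, 1967 and 2058 in null and 2288, 2373 and 2258 in floxed libraries at day 5, a log2 change of -0.27 ± 0.09. Ifitm2 reached 1976, 1937 and 2246 in null libraries at day 3 and 2228, 1942 and 2217 in floxed ones, which also overlapped. Ifitm3, next to them on chromosome 7, averaged 826 ± 113 in null and 774 ± 111 in floxed libraries at day 5. The Ifitm genes are close relatives, so reads may have been split among them.

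Bst2 (ENSMUSG00000046718.7, chr8:71534255-71537456) encodes tetherin, which holds budding virus to the cell surface. It had 1219.6, 1222 and 1429 normalised reads in null and 734, 874 and 542 in floxed libraries at day 5, a log2 change of 0.87 ± 0.16. At day 3 Bst2 stood at 1694, 1727 and 1687 in null and 1846, 1906 and 1360.4 in floxed libraries, with 2 of 3 floxed libraries above all null ones and a log2 change of 0.01 ± 0.16. Ifi27 (ENSMUSG00000064215.13, chr12:103434211-103440239), a small hydrophobic membrane protein, had 97.2, 85.0 and 130.1 in null and 23.9, 28.5 and 27.9 in floxed libraries at day 5, a log2 change of 1.90 ± 0.57. For Ifi27 at day 3 the values were 7.33, 24.1 and 41.1 in null and 2.90, 4.29 and 15.4 in floxed libraries.

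Lgals3bp (ENSMUSG00000033880.11, chr11:118392751-118402092), a secreted glycoprotein, had 91.6, 79.2 and 94.5 normalised reads in null and 39.8, 37.7 and 31.4 in floxed libraries at day 5, a log2 change of 1.26 ± 0.34. The day 3 values of Lgals3bp were 17.1, 21.4 and 51.9 in null and 11.6, 15.01 and 15.4 in floxed libraries. Rtp4 (ENSMUSG00000033355.5, chr16:23520291-23614222), a chaperone that carries receptors to the membrane, had 67.8, 64.1 and 84.7 in null and 23.1, 17.6 and 19.2 in floxed libraries at day 5. Null libraries at day 3 had 10.998, 22.8 and 25.0 normalised reads of Rtp4 and floxed ones had 0, 21.4 and 6.35, so 1 floxed library held no read and another stood among the null ones. Its log2 changes, 1.802 ± 0.79 at day 5 and 1.83 ± 0.79 at day 3, were not called on either day. Shisa5 was nearly level, averaging 712 ± 21.1 in null and 645 ± 58.2 in floxed libraries at day 5.

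The 6 remaining effectors comprised 5 called higher in null libraries at day 5 and 1, Ifi35, at day 3. Ifi35 (ENSMUSG00000010358.13, chr11:101448407-101458698), a leucine zipper protein, had 362, 399.6 and 512 normalised reads in null and 111, 87.1 and 116 in floxed libraries at day 5. Ifi35 reached 165, 279.8 and 480.1 in null libraries at day 3 and 59.1, 106 and 94.3 in floxed ones, with null replicate 3 near its day 5 level. The log2 changes of Ifi35 were 2.005 ± 0.32 at day 5 and 1.73 ± 0.32 at day 3. Ifi44 (ENSMUSG00000028037.13, chr3:151730922-151749960) had 13.6, 13.98 and 25.0 normalised reads in null and 2.39, 4.19 and 1.75 in floxed libraries at day 5 and no read in any of the 6 day 3 libraries.

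Xaf1 (ENSMUSG00000040483.15, chr11:72301629-72313733), an antagonist of the apoptosis inhibitor XIAP, had 233, 282 and 329.8 normalised reads in null and 151, 144 and 179 in floxed libraries at day 5, a log2 change of 0.82 ± 0.18. At day 3 Xaf1 stood at 324, 336 and 395 in null and 504, 329 and 336 in floxed libraries, with floxed replicate 1 the highest of all. Stat2, the one transcription factor among the 42, averaged 523 ± 86.8 in null and 299 ± 66.6 in floxed libraries at day 5, and 561 ± 90.8 in null and 487 ± 16.8 in floxed libraries at day 3. Samd9l was the lowest of the 42 in log2 change at day 3, at -0.39 ± 0.28, and had 0.66 ± 0.28 at day 5, with neither called.

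The 42 genes covered a wide range of levels once divided by exon length. Ifitm2 was highest in null embryoid bodies at day 5, with 2919 normalised reads per kilobase of exon in null and 3521 in floxed embryoid bodies, followed by Bst2 with 1429 in null and 794 in floxed ones. Next came Gbp2, with 1226 normalised reads per kilobase in null and 254 in floxed embryoid bodies at day 5. At the other end, Ifi44, Herc6 and Oasl1 had 2.86, 3.38 and 3.97 normalised reads per kilobase in null embryoid bodies at day 5, against 0.453, 1.53 and 1.82 in floxed ones.

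Of the tested genes, 7 lie on chromosome 11, which also carries Kat2a, and that chromosome as a whole was shifted in the null line. Over its 1332 tested genes the median log2 change of null against floxed was 0.33 at day 5 and 0.36 at day 3, against -0.04 and -0.02 over the genes of all other chromosomes. The 7 genes are Irgm1, Irgm2, Igtp, Ifi35, Trim25, Xaf1 and Lgals3bp, of which 7 were called higher at day 5 and 4 at day 3. Chromosome 11 was then centred: in each library its log2 values were shifted until their median deviation equalled that of all other chromosomes. Deviations were taken from each gene's mean over the libraries. So centred, Irgm2, Igtp, Ifi35 and Trim25 were still called higher at day 5, with log2 changes of 2.16, 2.05, 1.65 and 0.54. Irgm1, Lgals3bp and Xaf1 were then no longer called, with 0.49, 0.90 and 0.46. At day 3 Ifi35 (1.35) and Trim25 (0.54) were still called, whereas Irgm2 (1.05) and Igtp (0.88) were not. Over all genes the same centring left 219 called higher and 255 lower at day 3, against 696 and 345 without it. The part of the chromosome-wide shift in these differences was not tested further.

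**Figure D3:**
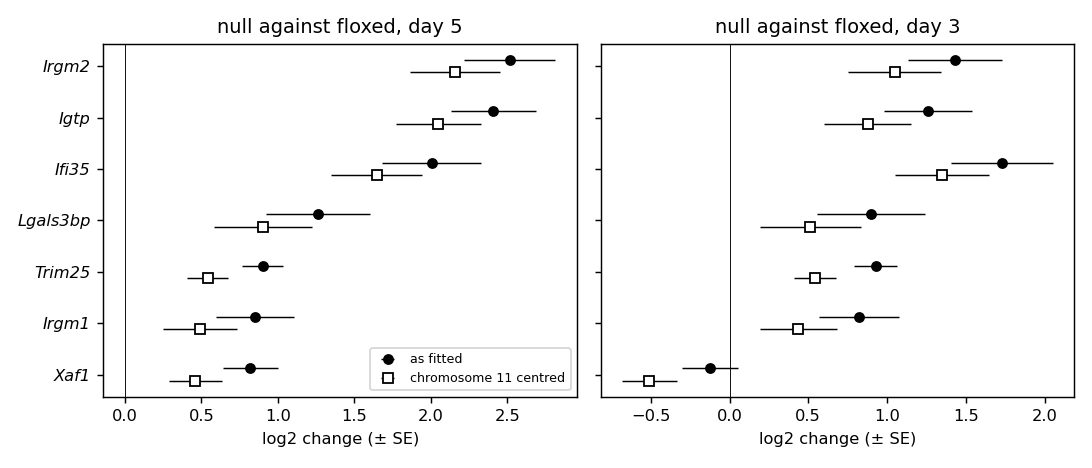
Log2 change with its SE of the 7 chromosome 11 genes in null against floxed embryoid bodies, at day 5 (left) and day 3 (right), as fitted (circles) and with chromosome 11 centred on the other chromosomes (squares). Centring lowers each value by a like amount and places Xaf1 at -0.51 at day 3.

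Most of the effector genes also changed between day 3 and day 5, and most of those rose. Day 5 was compared with day 3 within each line. These comparisons share libraries with the ones on which the genes were chosen, so a gene picked for high null values at day 5 will tend to rise in the null line. For a rise in the null line the call therefore only sorts the genes, and no p-value is read for it. In null embryoid bodies 27 of the 42 genes rose and 2 fell (limma adjusted p under 0.05), against 22.6% and 21.9% of all genes. The median log2 change was 1.12, against 0.00 over all genes. Ifit3 and Ifi44, among the 27, passed the filter on low values only through the null day 5 libraries, which favours a rise. In floxed embryoid bodies 17 rose and 6 fell, against 22.5% and 19.2% of all genes, with a median of 0.68. That median was 0.52 when Ifi44, absent at day 3, was set at the bound that 3 reads per library allow. The 17 genes that rose in floxed embryoid bodies also rose in null ones.

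In the null line Rsad2 rose to 825 ± 168 normalised reads at day 5, against 64.8 ± 29.3 at day 3 (log2 change 3.75 ± 0.46). Ifit1 rose by 2.96 ± 0.41 and Usp18 by 2.69 ± 0.43 on the log2 scale. The log2 change of Ifit3 was 3.55 ± 0.73. Only the null day 5 libraries brought Ifit3 past the filter. Ifi44, with no read at day 3, was at least 5.07-fold higher at day 5 in the null line, taking 3 reads per library as the floor. All 7 GTPases and all 6 antiviral RNA-binding proteins and nucleotide enzymes rose in the null line, among them Gbp7 by 2.28 ± 0.28 and Gbp2 by 1.91 ± 0.36. Gbp11, Irgm2 and Igtp rose by 2.32, 1.39 and 1.17 there.

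In the floxed line the largest rise was that of Ifitm1, to 349 ± 13.7 normalised reads at day 5, against 43.1 ± 10.4 at day 3 (log2 change 3.02 ± 0.23, limma adjusted p = 1.60e-06). Ifitm1 rose in the null line too, by 2.41 ± 0.23. Rsad2 rose by 2.42 ± 0.46 (limma adjusted p = 0.00100), Usp18 by 1.86 ± 0.43 (adjusted p = 0.00378) and Ifi27 by 1.99 ± 0.57 (adjusted p = 0.0133) in the floxed line. Ifi44 had 2.77 ± 1.27 normalised reads at day 5 in the floxed line, under the floor, so no fold against its absence at day 3 is given, and its call ended at a pseudocount of 10 (limma adjusted p = 0.133). Ifit1 at 0.69 ± 0.41 (limma adjusted p = 0.203) and Igtp at 0.02 ± 0.28 (adjusted p = 0.958) did not pass the test in the floxed line.

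Oasl1 and Oas3 fell in both lines. In null embryoid bodies Oas3 fell to 50.4 ± 5.81 normalised reads at day 5, against 98.0 ± 17.8 at day 3 (log2 change -0.94 ± 0.24, limma adjusted p = 0.00650). In floxed ones it fell to 30.2 ± 5.15, against 65.5 ± 17.2 (log2 change -1.07 ± 0.24, limma adjusted p = 0.00301). Bst2, Xaf1, Stat2 and Shisa5 fell in the floxed line, with log2 changes of -1.26, -1.27, -0.73 and -0.30. In the null line the same 4 genes had -0.40, -0.33, -0.10 and -0.15, which did not pass the test. For Bst2 this turned on the fit: it passed with the replicate number as a block, with only the groups compared and with the 4 libraries numbered 3 left out (limma adjusted p = 0.0319, 0.00488 and 0.00368). It also passed without floxed day 3 replicate 3, floxed day 5 replicate 2, floxed day 5 replicate 3 or null day 5 replicate 3 (limma adjusted p = 0.0173 to 0.0496). The Parp genes and Dtx3l mostly did not pass it: Parp14 alone rose, by 1.17 ± 0.22 in null and 0.67 ± 0.22 in floxed embryoid bodies. Parp10 passed in the null line under the same 3 settings (limma adjusted p = 0.0432, 0.0468 and 0.0415) and without floxed day 3 replicate 1 or null day 3 replicate 3 (limma adjusted p = 0.0362 and 0.0179).

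Of the 29 calls in the null line, 23 held as each library was left out, and of the 23 in the floxed line 16 did. In the null line, leaving out null day 5 replicate 1 ended the calls of Irgm1, Oas1a and Oasl1 (limma adjusted p = 0.0522 to 0.0837), and leaving out replicate 2 those of Irgm1, Oas1a, Oasl1, Oasl2 and Trim21 (limma adjusted p = 0.0570 to 0.123). Without null day 5 replicate 3 the calls of Irgm1, Oas1a, Oasl1, Oasl2, Trim21 and Zbp1 (limma adjusted p = 0.0516 to 0.0861) ended. Null day 3 replicate 1 decided Irgm1, Oas1a, Oasl2, Trim21 and Zbp1 (limma adjusted p = 0.0723 to 0.145), replicate 2 decided Oas1a, Oasl1, Oasl2, Trim21 and Zbp1 (limma adjusted p = 0.0505 to 0.0711) and replicate 3 decided Oasl1 (limma adjusted p = 0.144). Leaving out null day 3 replicate 1 also lowered the log2 change of Oasl2 to 0.43 and that of Irgm1 to 0.48, against 0.65 and 0.74 with all libraries.

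In the floxed line, leaving out floxed day 5 replicate 1 ended the calls of Gbp2, Irgm1, Isg15 and Parp14 (limma adjusted p = 0.0529 to 0.161), replicate 2 that of Parp14 (limma adjusted p = 0.0875) and replicate 3 those of Cmpk2 and Shisa5 (limma adjusted p = 0.0804 and 0.112). Floxed day 3 replicate 1 decided Cmpk2, Gbp2, Ifi27, Irgm1, Isg15, Parp14 and Shisa5 (limma adjusted p = 0.0667 to 0.173). Replicate 2 of that group decided Ifi27 and Shisa5 (limma adjusted p = 0.0503 and 0.0725), and replicate 3 decided Gbp2, Irgm1 and Isg15 (limma adjusted p = 0.0504 to 0.0895). Irgm1 was also lost without null day 5 replicate 2 (limma adjusted p = 0.0511), which enters the fit only through the shared spread.

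**Figure D4:**
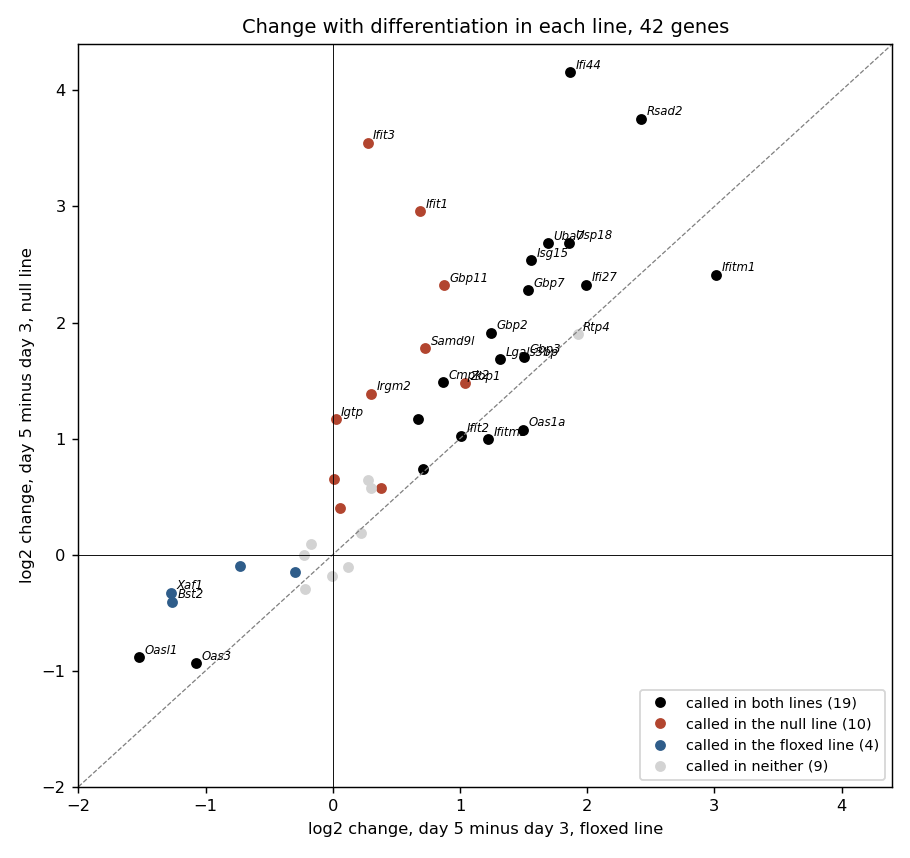
Log2 change at day 5 against day 3 of the 42 genes, in the null line (vertical) against the floxed line (horizontal), coloured by the line in which the change passed the test, with the line of equality dashed. Most points lie above that line, Ifit3, Ifi44 and Ifit1 farthest from it, while 8 lie below, Ifitm1, Oas1a and Ifitm3 among them.

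Whether the genes changed more with differentiation in the null line than in the floxed line was asked with the genotype by day interaction. The interaction is the difference between the lines at day 5 minus that at day 3, and the genes were chosen on those differences, so its sign and its test are not independent of the choice. A pass therefore only sorts the genes, and no p-value of a single gene is given for it. The log2 interaction was above 0 for 34 of the 42 genes, with a median of 0.40, against -0.01 over all genes. By limma's test adjusted over all genes 0 of the 42 passed, where 0.476% of all genes did. At an unadjusted p under 0.05 there were 10 of the 42, against 14.2% of all genes, and edgeR on the recovered reads called 0 of 42. Leaving aside Ifi44, which had no read at day 3, the largest interactions were those of Ifit3, 3.27 ± 1.03, and Ifit1, 2.27 ± 0.58. Ifit3 and Ifi44 passed the filter only through the null day 5 libraries, which favours a high interaction. Ifit1 passed it only through null libraries, averaging 83.4 there at day 5 and 10.97 at day 3, against 7.69 and 4.18 in floxed ones. With the replicate number as a block, Bst2 passed the threshold. Among all 17000 genes, 212 passed above 0 and 231 below 0 in that fit, against 42 and 39 without the block. A pseudocount of 10 brought Ifit1 and Ifit3 past it. Leaving out floxed day 3 replicate 3 brought Bst2 and Igtp past it.

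The genes that carry the interferon signal were examined beside the effectors. Of 18 tested genes for interferon receptors, kinases, transcription factors and inhibitors, 4 were called higher and 1 lower in null libraries at day 5, and 1 higher and 0 lower at day 3. These shares lie near those of all genes, 13.0% higher and 13.5% lower at day 5 and 4.09% higher and 2.03% lower at day 3, so the counts are not read as a result about the list. Their median log2 changes were 0.23 at day 5 and 0.04 at day 3. Irf9 averaged 253 ± 32.7 in null and 209.7 ± 13.3 in floxed libraries at day 5. The feedback inhibitor Socs1 was called higher on both days, with 114, 118 and 142 in null and 60.5, 46.1 and 47.1 in floxed libraries at day 5 and a log2 change of 1.27 ± 0.19. Between days, 11 of the 18 rose and 1 fell in the null line, and 7 rose and 2 fell in the floxed line, against 22.6% and 21.9% of all genes in the null and 22.5% and 19.2% in the floxed line, with Jak2 rising in both, by 1.24 in null and 1.32 in floxed embryoid bodies. The interferon genes Ifnb1, Ifna2, Ifna4, Ifnk and Ifne were not analysed here.

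Of 20 tested genes of nucleic acid sensing and interferon induction, 10 were called higher in null libraries at day 5, where 13.0% of all genes were, and 5 at day 3, where 4.09% were. On both days 0 of the 20 were called lower, against 13.5% of all genes at day 5 and 2.03% at day 3. Some of these calls turned on the fit. Dhx58 at day 3, with a log2 change of 1.02, was not called with chromosome 11 centred (0.64) or without some single libraries. The day 5 call of Eif2ak2 (0.49) ended without floxed day 5 replicate 1, floxed day 5 replicate 3 or null day 5 replicate 2. Ddx60, a helicase linked to RNA sensing, had 606, 718 and 844 normalised reads in null and 76.4, 99.7 and 112 in floxed libraries at day 5, a log2 change of 2.90 ± 0.35. Irf7, the factor that amplifies type I interferon production, was low but apart, with 21.5, 22.1 and 35.7 in null and 3.98, 4.19 and 4.36 in floxed libraries at day 5 and a log2 change of 2.37 ± 0.37. The annotated end of Irf7 overlaps that of Phrf1 on the opposite strand. Of 36 tested interferon-inducible genes outside the 44, a list that shares members with the lists before it, 18 were called higher at day 5 and 10 at day 3, against the same 13.0% and 4.09% of all genes, and 0 lower, with a median log2 change of 1.14 at day 5. Gbp9 and Irf1 were among them, with log2 changes of 1.63 ± 0.21 and 1.31 ± 0.20 at day 5, the second on chromosome 11.

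Markers of other cell types were examined beside these results. Beside the marker counts called stand the shares of all genes, 13.0% higher and 13.5% lower at day 5 and 4.09% higher and 2.03% lower at day 3. Of 11 leukocyte and macrophage markers, 4 had a row in the table (Csf1r, Cd68, Laptm5, Itgam) and the other 7 were not analysed here. These 4 summed to 311 to 326 normalised reads in null and 126 to 216 in floxed libraries at day 5. At day 3 they summed to 257 to 296 in null and 169 to 235 in floxed libraries. The sums of these 4 did not overlap on either day. Of the 3 tested, 1 was called higher and 0 lower at day 5, and 0 were called at day 3. The median log2 change of the 3 was -0.06 at day 5 and 0.44 at day 3. Cd68, which lies on chromosome 11, averaged 254 ± 18.8 in null and 95.1 ± 29.0 in floxed libraries at day 5, whereas Csf1r averaged 11.1 ± 7.43 in null and 11.3 ± 3.23 in floxed ones. Fibroblast markers, 12 of 14 with a row, summed to 1686 to 3498 in null and 1607 to 3609 in floxed libraries at day 5. At day 3, where Ccl2 was at 0 throughout, they summed to 683 to 742 in null and 559 to 643 in floxed libraries, which did not overlap. Of the 10 tested, 1 was called higher and 1 lower at day 5, and 2 higher and 0 lower at day 3. The median log2 change of the 10 was -0.13 at day 5 and -0.06 at day 3, unlike the higher null sums at day 3. Endothelial markers, 5 of 6 with a row, summed to 313 to 656 in null and 369 to 765 in floxed libraries at day 5. At day 3 they summed to 513 to 587 in null and 287 to 446 in floxed libraries, which did not overlap. On both days 0 of these 5 were called, with median log2 changes of 0.14 at day 5 and 0.42 at day 3. Early mesoderm and neural ectoderm markers, all 7 with a row, summed to 2272 to 3535 in null and 4191 to 6051 in floxed libraries at day 5, which did not overlap, and to 862 to 1574 in null and 1227 to 3783 in floxed libraries at day 3. Their median log2 change was -1.08 at day 5, with 2 of 7, T and Zic1, called lower, and -0.59 at day 3, with 0 of 7 called. Extraembryonic endoderm markers, all 9 with a row, summed to 1789.5 to 2761 in null and 1469 to 4743 in floxed libraries at day 5, and to 474 to 527 in null and 339 to 783 in floxed libraries at day 3, with 1 of 9, Foxa2, called lower at day 5 and 0 of 9 called at day 3. The part of such cells in the differences of the effector genes was not tested.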

How the data were processed

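RNA was extracted from day 3 and day 5 embryoid bodies and made into stranded total RNA libraries with 8 cycles of PCR, per the labels' protocols. HTSeq 0.6.0, TopHat2 2.0.10, DESeq 1.16.0 and CASAVA 1.8.2 are named in the submitters' processing notes, with no roles, and so is the mm10 build. The deposited table holds 1 signal value per gene and sample, a read count that the authors divided by a size factor. Of its values, 100% were whole multiples of 1 read (tolerance 0.01), which gave back whole reads. There were 18269 genes, and every one reached 10 reads in some library. Gene IDs, stripped of their version, were looked up in GENCODE M21, which is on that build: 18199 matched, 12740 of them with an equal version, and 70 did not.

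The test was limma-trend (limma 3.58.1, R 4.3.3) on log2(value + 1). All 12 samples entered the fit as 4 groups, which left 8 residual degrees of freedom. Of the genes, 17000 averaged 10 or more in some group and were tested, and 1269 were not. P-values were two-sided and Benjamini-Hochberg adjusted over all 17000 genes, and log2 changes are on this scale, which understates changes of low genes. They are printed ± SE. The genes, lists and tests were chosen with earlier results of these data known.

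Genes were named by a rule: the 12 with the largest genotype change averaged over days and a group mean of at least 50, those whose average was below 0, the 5 largest called changes between days in each line, those on chromosome 11 and the 2 most abundant. Kat2a, Irf9, Irf7 and up to 6 genes per pathway list were also named, and a further pathway gene is not reported here. All other genes given with values, such as Isg15, Oasl2, Bst2, Oas3 and Stat2, were chosen after their values were seen.

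Same-numbered samples deviated together across genes between null and floxed libraries (r = 0.247 to 0.424 at day 5 and 0.270 to 0.372 at day 3) and between days in the null line (0.123 to 0.282), so the numbers pair the samples there. Differently numbered samples reached at most 0.0268 between null and floxed libraries at day 5, -0.0175 at day 3 and 0.0521 between days in the null line. In the floxed line same-numbered samples had 0.0814 to 0.214 and differently numbered ones -0.223 to 0.124, which overlapped. SEs, calls and p-values are from the fit without this pairing unless the block is named. The origin of the numbers is not given in the sources used here. Alternatives were pseudocounts of 0.5 and 10, other filters, upper-quartile and TMM scaling, edgeR 4.0.16 quasi-likelihood on the recovered reads, the replicate number as a block, chromosome 11 centred, only the groups compared, and each library left out. The model was tested on simulated data.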

Additional observations from a re-analysis of the deposited data

How the results depend on the processing

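The counts of effector genes called were compared under each alternative. Null against floxed at day 3 was the least stable, with 15 of 42 called: 8 were called when only the groups compared entered the fit and 6 with the 4 libraries numbered 3 left out. Leaving out each library in turn gave 7 to 20 at day 3, 28 to 36 at day 5, 24 to 31 between days in the null line, 17 to 25 in the floxed line and 0 to 2 for the interaction. The interaction call count was 2 at a pseudocount of 10. With the replicate number as a block, the pairing gave 17 calls at day 3, 36 at day 5, 32 between days in the null line, 26 in the floxed line and 1, Bst2, for the interaction. The block ended no call. It gained Ifi27 and Parp10 at day 3, Bst2, Parp10 and Rtp4 in the null line and Rtp4, Samd9l and Zbp1 in the floxed line. Centring chromosome 11 gave 13 calls at day 3 and 33 at day 5. By edgeR on the recovered reads 15 effector genes were called at day 3, 37 at day 5, 30 in the null line and 24 in the floxed line. Of all counts under the alternatives, these included, 106 stayed equal to the reported one or within 1.5 times it, and 8 did not. No called change of a named gene turned its sign under any of these alternatives. The cause of these shifts was not tested. With 3 samples a group and Ifit3, Ifi44, Usp18, Isg15 and Rtp4 at few reads at day 3, differences of such genes were poorly resolved there.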
